A study of Rattus norvegicus with 6 samples.

Results

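Accessible sites (ACS) that lie a short way upstream of a gene start were examined in pancreatic islets of young and adult rats. The members are the distinct regions that the deposited table puts in its PROXIMAL class and on the upstream side of the nearest gene, and 4777 of 101603 distinct regions (4.70%) met that rule. They come from 4801 listed entries, since 23 regions are listed with a second nearest gene, and each region was used once. They lie near 3872 genes, of which 3149 have 1 such site, 578 have 2 and 145 have 3 or more. Of the 4777 sites, 4572 lie upstream of a protein-coding gene and 112 upstream of a gene of the miRNA type in RefSeq.

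The libraries were made by ATAC-seq, in which the Tn5 transposase cuts open DNA and inserts sequencing adapters there. The Adult group holds 3 libraries (Adult replicates 4, 5 and 6), each from the islets of an adult male Sprague-Dawley rat. The P10 group holds 3 libraries (P10 replicates 1, 2 and 3), each from the pooled islets of pups of a litter at postnatal day 10, male and female. No animal carried a transgene or received a treatment, and whole islets hold other endocrine and non-endocrine cells beside β-cells. The groups thus differ in age, in sex and in whether a library holds 1 rat or a litter. By the study's methods, pup pancreases were digested by hand shaking, while adult pancreases had collagenase injected into the duct. All P10 libraries also hold more integrations than all Adult libraries. Total reads per library, as the study gives them, overlap between the ages, so the yield of integrations per read differs too. These differences cannot be told apart.

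DNA just upstream of a gene holds promoter-proximal enhancers and, at some genes, alternative starts. Transcription factors that bind there displace nucleosomes, which makes the DNA open to Tn5, and the number of Tn5 integrations in a site is read as its accessibility. In islets after birth, β-cells pass from a dividing state with a poor glucose response to a state with little division and regulated insulin secretion. Up means more integrations in Adult islets than in P10 islets, and Down means fewer.

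The site upstream of *Syt4*, a synaptotagmin of secretory vesicles, is shown first, as the study placed it in a reporter plasmid. It spans 306 bp, chr18:23903464-23903769 of Rn5, and starts 1036 bp upstream of the gene start. The first 300 bases, chr18:23903464-23903763, follow as the study's sequence table gives them, without a stated strand. Capitals mark matches to the E-box CANNTG, the core bound by basic helix-loop-helix factors.
*Syt4* upstream site: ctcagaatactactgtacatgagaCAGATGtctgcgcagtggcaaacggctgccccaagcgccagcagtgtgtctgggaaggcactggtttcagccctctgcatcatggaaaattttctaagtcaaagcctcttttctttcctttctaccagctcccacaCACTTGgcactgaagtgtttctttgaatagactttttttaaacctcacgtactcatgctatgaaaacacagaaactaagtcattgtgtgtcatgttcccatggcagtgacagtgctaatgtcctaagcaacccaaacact
The site holds 2 E-box matches, and no match on either strand to the AP-1 motif TGANTCA, the forkhead motif TGTTTAC, the Scratch motif CAACAGGTG or the NRF1 motif GCATGCGC. Its GC content is 45.8%.

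The *Syt4* site held 10.8, 7.30 and 8.90 integrations per 1000000 in ACS (CPM, scaled by TMM, a trimmed mean of log ratios between libraries) in Adult replicates 4, 5 and 6, and 2.14, 2.14 and 2.54 in P10 replicates 1, 2 and 3. All Adult libraries lay above all P10 libraries, with means of 9.01 ± 1.77 and 2.27 ± 0.23 (SD, n = 3 each). The log2 fold change was 1.98 (standard error 0.28, FDR = 3.13e-05 from edgeR's quasi-likelihood test with Benjamini-Hochberg adjustment over all regions). The 6 fits that each omit 1 library gave values from 1.82 to 2.12. In log2 CPM, the region at the *Syt4* start itself differed by 0.69 and the upstream site by 1.91. On that scale the upstream site gained 1.22 more than the start (standard error 0.29, FDR = 0.00781 from limma on the differences per library).

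Between the ages, 431 upstream sites were Up (9.02%) and 333 were Down (6.97%), at p-values under 0.05 and an FDR under 0.2, the limits of the study. The remaining 4013 were not called. Over all regions, 12.3% were Up and 6.63% were Down. At an FDR under 0.05, 218 upstream sites were Up and 103 were Down, against 7.06% Up and 1.91% Down of all regions. Up sites had a median log2 fold change of 0.83 and Down sites one of -0.88, and the median over all upstream sites was -0.06 (over all regions -0.01).

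The groups did not overlap at 484 sites with Adult libraries higher (10.1%) and at 577 sites with Adult libraries lower (12.1%). Over all regions these shares were 13.8% and 10.9%. Of the called sites, 338 Up and 279 Down were among them. In the fits that each omit 1 library, 190 of the Up and 98 of the Down sites were called in all 6. No such count over all regions was set beside these. Up sites fell to 270 without Adult replicate 4, 245 without P10 replicate 2 and 262 without P10 replicate 3, and Down sites to 214 without Adult replicate 6 and 186 without P10 replicate 2. The balance of directions depended on the scaling, on the filter and on single libraries. Up sites made up 56.4% of the calls with TMM factors, 38.5% with column sums, 41.2% after cyclic loess scaling and 0.816% with total reads as library sizes. With a filter to regions with a mean count of at least 50 the share was 44.7%, and in the fits that each omit 1 library it ran from 47.8% (without Adult replicate 4) to 65.6% (without Adult replicate 6).

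**Figure D1:**
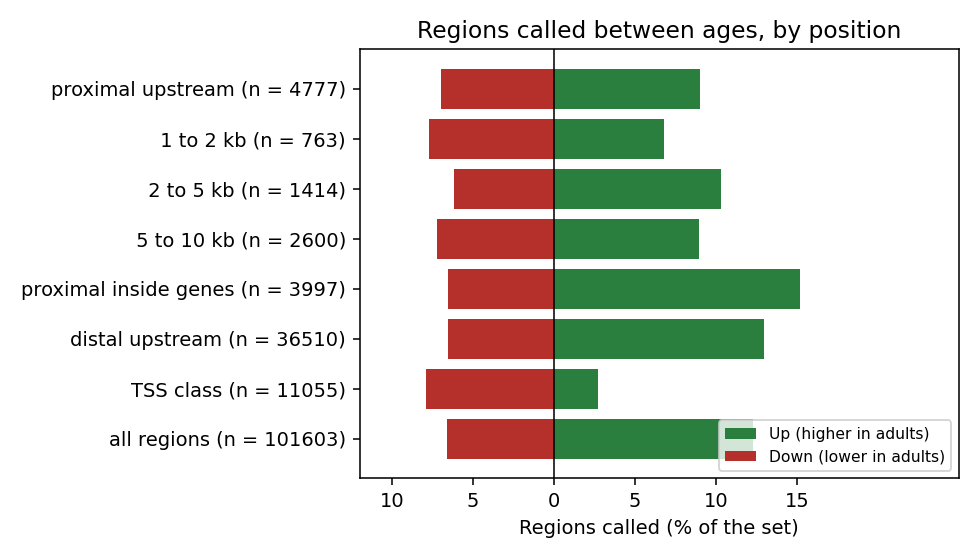
Percent of regions called Up (green, to the right) and Down (red, to the left) for proximal upstream sites, their 3 distance bands, other position classes and all regions, with the number of regions in brackets. Proximal upstream sites had 9.02% Up and 6.97% Down, between TSS-class regions (2.73% Up) and proximal regions inside genes (15.2% Up).

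Upstream sites stood between the regions at gene starts and those farther away or inside genes. TSS-class regions, the regions at or next to gene starts, were Up at 2.73% and Down at 7.87%. Proximal regions inside genes were Up at 15.2% and Down at 6.53%, and distal regions upstream of the nearest gene were Up at 12.99% and Down at 6.52%. These shares of calls were not tested against each other. The share of integrations that each class took was compared between the ages. Upstream sites took 5.11%, 4.86% and 4.76% of the integrations in Adult replicates 4, 5 and 6, and 5.38%, 5.09% and 4.94% in P10 replicates 1, 2 and 3. The groups overlapped, and the difference of -0.22 percentage points had p = 0.3 (exact permutation test, two-sided, smallest possible p 0.1).

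As a share of the proximal class alone, upstream sites took 50.02% ± 0.21 in Adult libraries and 51.0% ± 0.56 in P10 libraries (SD, n = 3 each). These ranges did not overlap (difference -0.93 percentage points, p = 0.1 by the same exact permutation test, the smallest that 3 libraries against 3 can give). Proximal regions inside genes took 3.39% ± 0.18 of all integrations in Adult and 3.31% ± 0.23 in P10 libraries (SD, n = 3 each), with overlap. TSS-class regions took 25.5% ± 0.86 in Adult and 28.2% ± 0.66 in P10 libraries (SD, n = 3 each), without overlap (difference -2.74 percentage points, p = 0.1, exact permutation test). Distal upstream regions took 31.2% ± 0.96 and 30.1% ± 0.90, with overlap (p = 0.3, exact permutation test). In all, 8 shares were compared in this way, 5 of upstream sites or their bands and 3 of other classes, and none could reach a p under 0.05 before or after adjustment.

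Sites nearest to the start had the lowest share of Up calls of the 3 distance bands. From 1 to 2 kb, 52 of 763 sites were Up (6.82%) and 59 Down (7.73%). From 2 to 5 kb, 146 of 1414 were Up (10.3%) and 87 Down (6.15%), and from 5 to 10 kb, 233 of 2600 were Up (8.96%) and 187 Down (7.19%). The share of integrations in sites at 1 to 2 kb was 1.12%, 1.06% and 1.06% in Adult libraries and 1.21%, 1.17% and 1.15% in P10 libraries. All Adult libraries lay below all P10 libraries (difference -0.10 percentage points, p = 0.1, exact permutation test, smallest possible p). In the 2 farther bands the groups overlapped (p = 0.5 and p = 0.6, exact permutation tests).

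The distance in the table runs from the gene start to the lower coordinate of a region for genes on either strand. For genes on the plus strand the region can thus reach closer to the gene than its distance says. The nearer edge lay within 1 kb at 252 sites, all of them at plus-strand genes, and as near as 7 bp. These 252 sites were wide (median 599 bp, against 369 bp for all upstream sites). Of them, 10 were Up (3.97%) and 20 Down (7.94%), against 12.3% and 6.63% of all regions. Leaving them out gave 421 Up and 313 Down sites.

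Count level moved with the calls. The median upstream site had a mean count of 79.3 over the 6 libraries, and 64.8 was the median over all regions. With all regions cut into 5 equal bins by mean count, 1.29% of the upstream sites of the lowest bin were Up and 7.28% Down, and in bin 4, 14.1% were Up and 6.23% Down. For all regions, 1.44% and 20.02% were Up in these bins. Sites wider than 800 bp were Up at 5.32% and Down at 8.96%, while those over 300 and up to 500 bp were Up at 10.6% and Down at 7.94%. All regions of these widths were Up at 6.87% and 13.6% and Down at 6.67% and 7.21%, so the lower share of Up calls among wide sites was also seen over all regions.

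Promoter sequences from RefSeq (build GRCr8, from 250 bases before to 50 after the start) were matched by gene ID to 3719 upstream sites (77.9%). Genes with an upstream site had promoters richer in GC (median 58.7%) than all 33469 promoters (51.7%), and a median of 16 CG pairs against 7. A single promoter was taken for each gene with an upstream site. The set of all promoters was not limited in this way or by gene type, so the sets are unlike. Promoters with the AP-1 motif made up 9.01% for genes with an Up site and 8.71% for genes with a Down site, against 6.62% for all genes with an upstream site and 7.33% of all promoters. The other motifs did not share this order. The E-box was in 72.4% for Up, 66.0% for Down and 68.2% for all genes with an upstream site, against 72.1% of all promoters. The forkhead motif was in 3.11%, 2.91% and 3.03%, against 3.78%, and the NRF1 motif in 2.48%, 2.49% and 2.53%, against 2.47%. The Scratch motif was in 0%, 0% and 0.266%, against 0.203%. None of these shares was tested. A match describes letters in the window and not a bound factor. Split into 3 equal groups by promoter GC, from low to high, sites were Up at 8.97%, 8.44% and 9.69% and Down at 7.85%, 6.49% and 5.73%.

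The 8 Up sites with the smallest p-values lay upstream of *Snx7*, *Slc41a3*, *Kcnk10*, *Slc17a3*, *Sod1*, *Ggact*, *Bin3* and *Ikbkb*. Their log2 fold changes were between 1.66 and 2.88, and all 8 were called in each fit without a library. They were taken for their small p-values among called sites whose groups did not overlap. These values, and the lack of overlap, thus describe them and do not test them anew.

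The *Snx7* site, chr2:239155267-239155650 of Rn5 and 5120 bp upstream of this sorting nexin gene, held 38.0, 31.5 and 38.4 CPM in Adult libraries and 5.81, 5.28 and 8.25 CPM in P10 libraries. The lowest Adult library was far above the highest P10 library, with a log2 fold change of 2.47 (standard error 0.21, FDR = 3.57e-08). The site upstream of *Slc41a3*, which encodes a magnesium transporter, held 23.7, 18.1 and 23.5 CPM in Adult libraries and 4.93, 4.07 and 2.17 CPM in P10 libraries (log2 fold change 2.54, standard error 0.26, FDR = 4.62e-07). At *Kcnk10*, a background potassium channel that helps to set the resting membrane potential, the values were 16.4, 15.6 and 21.0 CPM against 4.18, 3.64 and 4.34 CPM. Its log2 fold change came to 2.11 (standard error 0.24, FDR = 1.25e-06).

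Among the others, *Sod1* encodes the cytosolic superoxide dismutase and *Ikbkb* a kinase that activates NF-κB. The *Sod1* site, 8861 bp upstream, held 30.8 ± 2.41 CPM in Adult and 9.61 ± 0.66 CPM in P10 libraries (SD, n = 3 each). The *Ikbkb* site held 28.1 ± 5.80 and 8.93 ± 0.30 CPM. The largest fold among the 8 was at *Bin3*, a gene of the BAR domain family, where P10 libraries held 0.65, 1.28 and 1.16 CPM and Adult libraries 9.58, 6.04 and 6.83 CPM (log2 fold change 2.88, standard error 0.34, FDR = 3.07e-06). *Slc17a3*, a phosphate and urate transporter, had 24.4 ± 5.89 against 6.07 ± 0.81 CPM, and *Ggact*, an enzyme that breaks down crosslinked proteins, had 13.6 ± 2.99 against 3.01 ± 0.10 CPM.

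**Figure D2:**
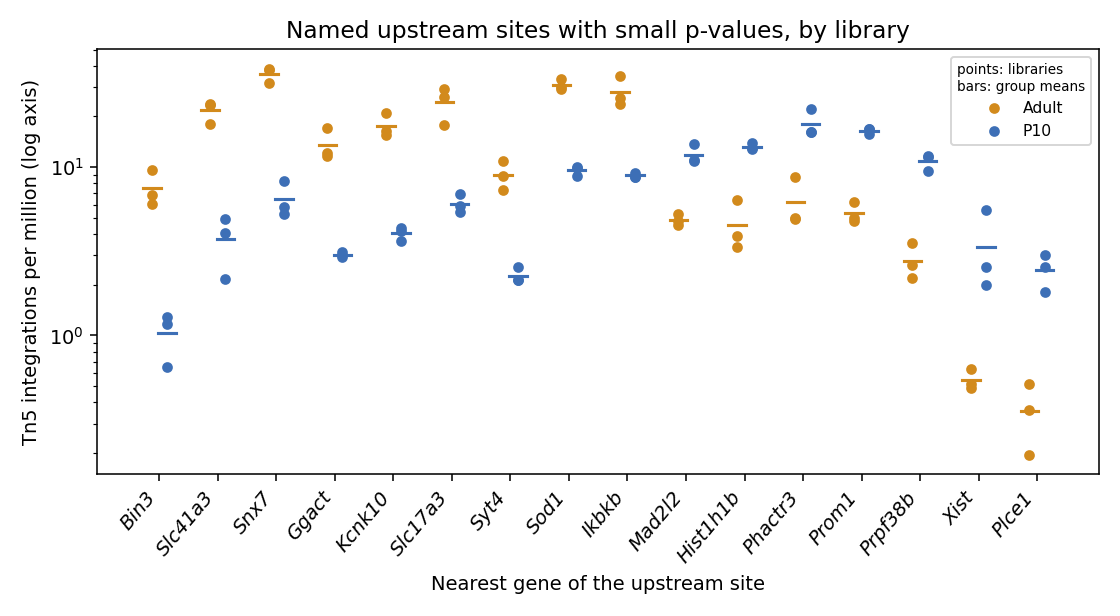
Tn5 integrations per 1000000 (CPM) in each library (log axis) at the *Syt4* site and at the 8 Up and 7 Down upstream sites named in the text for their small p-values, with bars at the group means. Adult libraries (orange) lie above all P10 libraries (blue) at each of the 9 Up sites and below them at each of the 7 Down sites. Sites other than *Syt4* were picked only where the groups did not overlap.

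Down sites among those with the smallest p-values lay upstream of *Prom1*, *Prpf38b*, *Phactr3*, *Hist1h1b*, *Plce1*, *Xist* and *Mad2l2*, with log2 fold changes from -2.80 to -1.29. They too were picked only where the groups did not overlap. The *Prom1* site, chr14:71555361-71556087 of Rn5, lies 7963 bp upstream of the gene of prominin-1, a membrane protein of progenitor and duct cells. It held 4.79, 4.97 and 6.19 CPM in Adult libraries and 16.9, 16.9 and 15.7 CPM in P10 libraries (log2 fold change -1.64, standard error 0.23, FDR = 2.75e-05). Both groups were tight and far apart. At *Prpf38b*, a splicing factor gene, Adult libraries held 3.52, 2.63 and 2.19 CPM and P10 libraries 11.6, 11.5 and 9.46 CPM (log2 fold change -1.94, standard error 0.28, FDR = 2.80e-05).

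*Hist1h1b* and *Mad2l2* belong to genes of dividing cells, a linker histone made during DNA replication and a subunit of a polymerase that copies damaged DNA. The *Hist1h1b* site held 4.55 ± 1.64 CPM in Adult and 13.3 ± 0.64 CPM in P10 libraries, and the *Mad2l2* site 4.86 ± 0.39 and 11.9 ± 1.65 CPM (SD, n = 3 each). The *Phactr3* site, near a regulator of phosphatase and actin, held 6.21 ± 2.21 and 18.1 ± 3.42 CPM. The *Plce1* site, near a phospholipase C gene, held few integrations in Adult libraries (0.361, 0.195 and 0.516 CPM, against 1.81, 2.57 and 3.01 CPM).

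*Xist*, the RNA that coats the inactive X chromosome of females, had 2 upstream sites, both Down. The site 3038 bp upstream held 0.633, 0.487 and 0.516 CPM in the libraries of adult males and 5.58, 1.997 and 2.54 CPM in the litters of both sexes (log2 fold change -2.62, standard error 0.48, FDR = 0.000529). The site 4809 bp upstream, named after its values were seen, held 0, 0.292 and 0 CPM against 2.28, 0.642 and 0.529 CPM. Sex differed with age here, and the 2 cannot be told apart at these sites. On the whole X chromosome, 7 of 101 upstream sites were Up and 14 Down, and on the autosomes 424 were Up and 319 Down of 4676. Over all 2587 regions of the X chromosome, 6.88% were Up and 9.20% Down, so more Down than Up calls were also found there outside upstream sites.

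The largest fold change of any upstream site came from 1 library. The site 9720 bp upstream of *Prpg1*, singled out after its values were seen, held 0.904, 1.75 and 1.03 CPM in Adult libraries, 0.930 and 2.07 CPM in P10 replicates 1 and 2, and 59.5 CPM in P10 replicate 3. Its log2 fold change was -4.07 (standard error 0.88, FDR = 0.00297). Without P10 replicate 3 it was -0.25 and the site was not called, and the groups overlapped.

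For 2613 upstream sites the nearest gene also had a TSS-class region, so that the site could be set against the start of its own gene. The site gained more than the start at 167 sites (6.39%) and less at 56 (2.14%), by limma on the difference per library at an FDR under 0.05. Over all 58229 regions that could be paired in this way, the shares were 9.22% and 2.19%. The median difference was 0.04 on the log2 scale for upstream sites and 0.08 for all paired regions. At 1 to 2 kb, 19 of 401 sites gained more and 4 less, and at 5 to 10 kb, 102 of 1580 gained more and 42 less. Without P10 replicate 2 the counts for all upstream sites fell to 68 and 21, without P10 replicate 3 to 69 and 22, and without P10 replicate 1 the second fell to 37.

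Most starts were not called, whether or not their upstream site was. Over all TSS-class regions, 2.73% were Up and 7.87% Down. A called site with a start that was not called thus does not by itself show that site and start differed. Of 266 Up sites with a start region, the start was Up at 18, Down at 11 and not called at 237. Of 192 Down sites, the start was Down at 42, Up at 5 and not called at 145. Of 2155 sites that were not called, the start was Up at 87, Down at 184 and not called at 1884. Across the 2613 pairs, Pearson's r between the change at the site and that at the start was 0.20, and the pairs share libraries and some genes. By band, r was 0.31 at 1 to 2 kb, 0.29 at 2 to 5 kb and 0.13 at 5 to 10 kb.

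**Figure D3:**
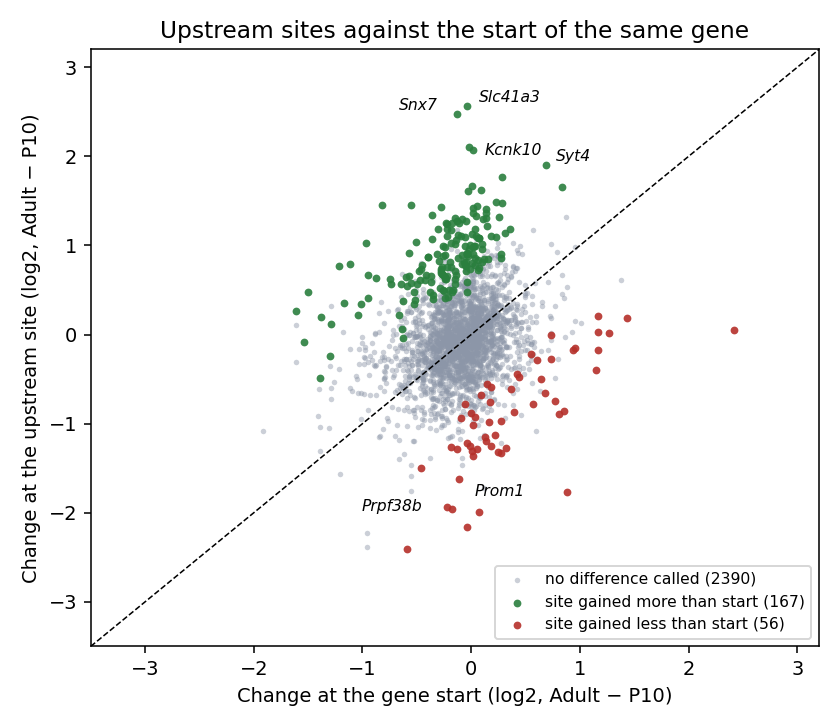
Change from P10 to Adult (log2 difference of mean levels) at the start of a gene, on the horizontal axis, and at its upstream site, on the vertical axis, for 2613 upstream sites, with the dashed line where both are equal. Green points are the 167 sites that gained more than the start and red points the 56 that gained less. The named sites other than *Syt4* lie between -0.22 and 0.02 on the horizontal axis.

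Large contrasts with the start were found at genes named above. The start region of *Snx7* held 99.6, 73.1 and 85.0 CPM in Adult and 82.3, 96.4 and 102 CPM in P10 libraries, with overlap, while the upstream site gained 2.60 more on the log2 scale (standard error 0.19, FDR = 1.96e-07). At *Slc41a3* the difference was also 2.60 (standard error 0.30, FDR = 1.70e-05), with a start of 7.32 ± 1.54 and 7.44 ± 0.87 CPM. At *Kcnk10* it was 2.06 (standard error 0.24, FDR = 1.63e-05), with a start of 24.5 ± 2.34 and 24.3 ± 3.31 CPM (SD, n = 3 each). In the other direction, the *Prpf38b* site fell behind its start by -1.71 (FDR = 0.000125) and the *Prom1* site by -1.50 (FDR = 9.80e-05). The start of *Prom1* held 36.5 ± 2.46 CPM in Adult and 39.5 ± 1.90 CPM in P10 libraries. At *Hist1h1b*, site and start both fell, by -1.57 and -1.21 in log2 CPM, and their difference of -0.36 was not called (FDR = 0.463).

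The promoters of *Snx7* and *Prom1* are given because the region at each start kept overlapping levels while the site upstream was called in opposite directions. Both come from RefSeq, and capitals mark the E-box CANNTG.
*Snx7* start, chr2:208612486-208612785 of GRCr8, minus strand: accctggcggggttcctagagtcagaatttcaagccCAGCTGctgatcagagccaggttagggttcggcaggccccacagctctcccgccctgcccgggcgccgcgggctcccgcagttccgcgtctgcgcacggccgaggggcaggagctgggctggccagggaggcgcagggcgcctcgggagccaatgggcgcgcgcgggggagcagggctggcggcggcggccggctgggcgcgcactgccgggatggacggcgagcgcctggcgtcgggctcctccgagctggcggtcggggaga
*Prom1* start, chr14:71202395-71202694 of GRCr8, plus strand: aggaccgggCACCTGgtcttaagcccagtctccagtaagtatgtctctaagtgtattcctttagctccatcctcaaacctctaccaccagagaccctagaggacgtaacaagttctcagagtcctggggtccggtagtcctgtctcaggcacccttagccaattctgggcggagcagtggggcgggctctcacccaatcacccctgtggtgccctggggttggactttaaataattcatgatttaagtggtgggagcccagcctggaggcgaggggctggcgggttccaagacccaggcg
The *Snx7* window has a GC content of 75.3% with 35 CG pairs and 1 E-box, and the *Prom1* window 56.7% with 8 CG pairs and 1 E-box. Neither holds a match to the AP-1, forkhead, Scratch or NRF1 motif. The builds differ between these windows and the Rn5 sites, and no distance was taken across them.

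Few genes with several upstream sites had 2 or more of them called. Of 723 genes with 2 or more upstream sites, 18 had 2 or more Up and none Down, 10 had 2 or more Down and none Up, and 11 had both an Up and a Down site. Where 2 or more were called, the same direction was thus more frequent than both directions. Over all upstream sites 9.02% were Up and 6.97% Down, and directions within genes were not tested. The olfactory receptor gene *Olr1537* had the most sites, 7, and edgeR called 0 of them (0 at an unadjusted p under 0.05, and 0 called by DESeq2 and by voom). *Atg4a*, an autophagy protease on the X chromosome, had 5, with 1 Down at 9037 bp (log2 fold change -0.78, FDR = 0.158) and all 5 fold changes below 0. Its call was lost without Adult replicate 4 (-0.46) or 6 (-0.74) and without P10 replicate 1 (-0.78) or 3 (-0.65). *Tmem232* had 5, with 1 Up at 4213 bp (log2 fold change 1.16, FDR = 0.00580).

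Calls were spread unevenly over the chromosomes. On chromosome 10, 4 of 344 upstream sites were Up and 41 Down, on chromosome 12, 2 of 109 and 10, and on chromosome 1, 21 of 637 and 46. On chromosome 16, 28 of 154 were Up and 4 Down, and on chromosome 9, 25 of 201 and 6. Over all regions, 4.48% were Up and 9.36% Down on chromosome 10, 15.5% and 5.95% on chromosome 16, and 14.9% and 4.67% on chromosome 9. For upstream sites these shares were 1.16% and 11.9%, 18.2% and 2.60%, and 12.4% and 2.99%. The direction in excess was thus the same, though not its size. On chromosome 12, 7.12% of all regions were Up and 4.80% Down, against 1.83% and 9.17% of the upstream sites. On chromosome 1 all regions were near balance, 8.24% Up and 8.16% Down, against 3.30% and 7.22% of the upstream sites. The median log2 fold changes of all regions were -0.18, -0.02, -0.07, 0.05 and 0.07 on chromosomes 10, 12, 1, 16 and 9, and those of upstream sites -0.19, -0.18, -0.12, 0.06 and 0.06. These differences between upstream sites and all regions were not tested. Of the integrations in upstream sites, chromosome 16 took 3.56% to 3.73% in Adult and 3.25% to 3.30% in P10 libraries, without overlap. It was not alone in this. The groups also did not overlap on chromosomes 6, 9, 11, 17 and 19, higher in Adult libraries, and on 1, 3 and X, lower in Adult libraries. These shares were taken for upstream sites alone, so they do not set them apart from other regions. Over all regions, median log2 fold changes were 0.03, 0.07, 0.05, 0.06 and 0.18 on chromosomes 6, 9, 11, 17 and 19. On 1, 3 and X they were -0.07, -0.17 and -0.14. Chromosome 10 took 4.08% to 4.94% and 4.85% to 5.88%, with overlap. Chromosomes were compared after the data were seen.

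**Figure D4:**
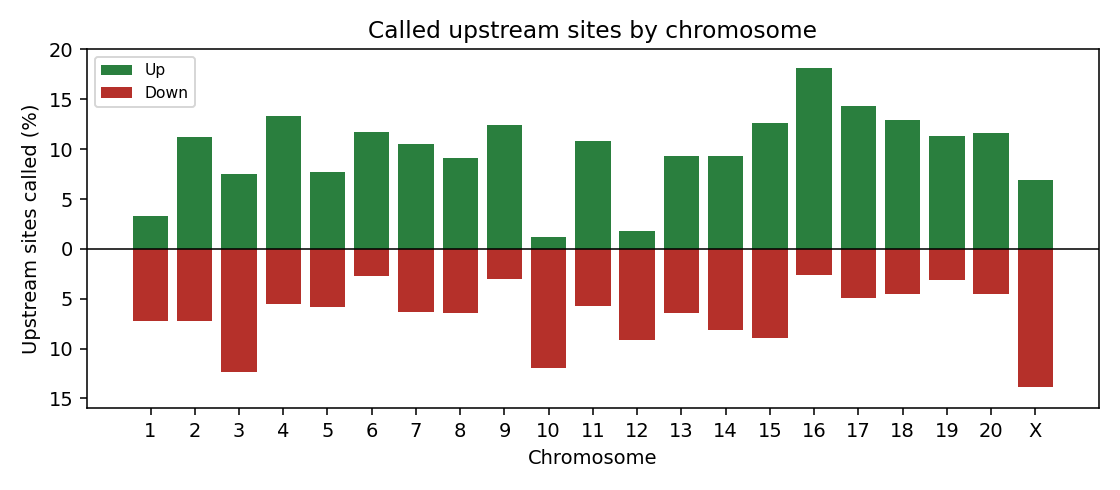
Percent of proximal upstream sites called Up (green, above 0) and Down (red, below 0) on each chromosome. Chromosome 16 has 18.2% Up and 2.60% Down, and chromosome 10 has 1.16% Up and 11.9% Down.

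Of 451 genes in 14 lists of islet functions and cell types, 153 had an upstream site, with 194 sites in all. Of these sites, 19 were Up (9.79%) and 17 Down (8.76%), beside 12.3% and 6.63% over all regions, and 193 passed the usual filter on low counts. The median log2 fold change was -0.14.

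Islet transcription factors had 28 sites at 17 of 34 genes, 2 Up and 5 Down, with a median log2 fold change of -0.13. *Pax6*, *Nkx2-2* and *Pdx1* encode factors that build and maintain endocrine cells. The *Pax6* site 9186 bp upstream held 10.5, 9.25 and 8.90 CPM in Adult libraries and 21.8, 14.3 and 14.6 CPM in P10 libraries (log2 fold change -0.82, standard error 0.23, FDR = 0.0186). The *Nkx2-2* site 8351 bp upstream held 18.9, 16.3 and 14.7 CPM against 28.8, 24.0 and 23.8 CPM (log2 fold change -0.62, FDR = 0.0392). The *Pdx1* site 1646 bp upstream held 4.97, 3.60 and 3.87 CPM against 8.88, 6.49 and 6.13 CPM (log2 fold change -0.79, FDR = 0.0775). In all 3 the groups did not overlap, and none differed from its own gene start at an FDR under 0.05 (0.0546, 0.450 and 0.333). The fit against the start recovered 8.18% of simulated log2 changes of 1. A missed limit in that fit therefore does not show that site and start moved alike. The *Pdx1* call was lost without P10 replicate 1 (-0.61).

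Genes of hormones, their processing and granules had 11 sites, 2 Up and 1 Down. *Ghrl*, the gene of ghrelin, a hormone of islet ε-cells, had 33.5, 29.1 and 26.0 CPM in Adult and 15.8, 10.9 and 12.8 CPM in P10 libraries at 2100 bp upstream (log2 fold change 1.16, standard error 0.20, FDR = 0.000244). *Ins1*, a rat insulin gene, had 11.8, 8.18 and 6.06 CPM in Adult and 26.5, 13.6 and 17.9 CPM in P10 libraries at 9213 bp upstream (log2 fold change -1.15, standard error 0.26, FDR = 0.00381). The *Ins1* start differed by -0.70 and was not separated from the site (FDR = 0.206). *Scg2*, a granin of secretory granules, was Up at 9418 bp (log2 fold change 0.79, FDR = 0.0284), with 13.8 to 30.7 CPM in Adult libraries, and was not called without Adult replicate 6 (0.49).

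Genes of channels and exocytosis had 21 sites, 3 Up and 2 Down. Beside *Syt4*, the list holds 2 vesicle genes with Down sites. *Stx3*, a syntaxin of granule fusion, had 4.34 ± 1.61 CPM in Adult and 8.56 ± 0.65 CPM in P10 libraries at 1257 bp (log2 fold change -0.96, FDR = 0.0270). *Syt7*, a calcium sensor of insulin release, had 7.68 ± 1.05 and 12.8 ± 3.40 CPM at 3777 bp (log2 fold change -0.74, FDR = 0.0556), and was not called without P10 replicate 1 (-0.50).

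Genes of receptors and cyclic AMP signalling had 18 sites, 4 Up and 1 Down. Adenylate cyclases, which make cyclic AMP, and a somatostatin receptor led this list. *Adcy8* held 10.8, 12.8 and 12.4 CPM in Adult and 5.90, 5.14 and 5.76 CPM in P10 libraries at 1228 bp (log2 fold change 1.10, standard error 0.24, FDR = 0.00271). *Adcy1* had a log2 fold change of 0.91 at 8449 bp (FDR = 0.00948) and *Sstr3* one of 0.89 at 3722 bp (FDR = 0.0312). All 3 gained more than their own gene start, by 1.02, 0.98 and 1.22 on the log2 scale (FDR = 0.00945, 0.0235 and 0.0151 by limma). The *Sstr3* site was not called between ages without P10 replicate 3 (0.67).

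Growth, fetal and Notch genes had 14 sites, 3 Up and 1 Down. *Sox4*, a developmental factor, had 39.1 ± 6.26 CPM in Adult and 24.2 ± 0.40 CPM in P10 libraries at 6313 bp (log2 fold change 0.69, FDR = 0.0100). *Irs1*, a docking protein of the insulin receptor, had 8.01 ± 0.59 and 4.43 ± 1.06 CPM (log2 fold change 0.86, FDR = 0.0416). *Hes1*, a repressor downstream of Notch, had low counts and overlapping groups, 1.18 ± 0.71 and 2.64 ± 0.75 CPM (log2 fold change -1.16, FDR = 0.0968). Without P10 replicate 3 neither *Irs1* (0.66) nor *Hes1* (-1.03) was called, nor was *Hes1* without Adult replicate 5 (-0.77).

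AP-1, stress and immediate early factors had 24 sites, 2 Up and 2 Down. *Klf4* was Up at 8674 bp, with 49.2, 37.4 and 49.2 CPM in Adult and 25.8, 23.2 and 20.4 CPM in P10 libraries (log2 fold change 0.97, standard error 0.17, FDR = 0.000502). *Junb*, a subunit of AP-1, was Down at 1108 bp, with 16.3 ± 0.24 and 25.9 ± 3.22 CPM (log2 fold change -0.67, FDR = 0.0231). *Egr1* was Down with overlapping groups (log2 fold change -0.39, FDR = 0.135), and its region of 1596 bp reaches to 130 bp from the gene start. The *Egr1* call was lost without Adult replicate 6 (-0.35), P10 replicate 1 (-0.21) or P10 replicate 2 (-0.44).

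The cell cycle list had 20 sites with 0 Up and 1 Down, at *Bub1*, a mitotic checkpoint kinase (log2 fold change -0.66, FDR = 0.129). By edgeR that site was also the only site of the list with an unadjusted p under 0.05, and DESeq2 and voom each called 1. Genes of glucose sensing and mitochondrial metabolism had 6 sites with 1 Up, at *Tfam*, the mitochondrial transcription factor (log2 fold change 0.65, FDR = 0.0797). Nuclear receptors and clock genes had 18 sites, of which edgeR called 0, with 1 at an unadjusted p under 0.05 and 0 called by DESeq2 and by voom. The *Bub1* call was lost without Adult replicate 4 (-0.56) or 6 (-0.51) and without P10 replicate 2 (-0.63) or 3 (-0.64), and the *Tfam* call without Adult replicate 4 (0.47), P10 replicate 2 (0.55) or P10 replicate 3 (0.58).

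**Figure D5:**
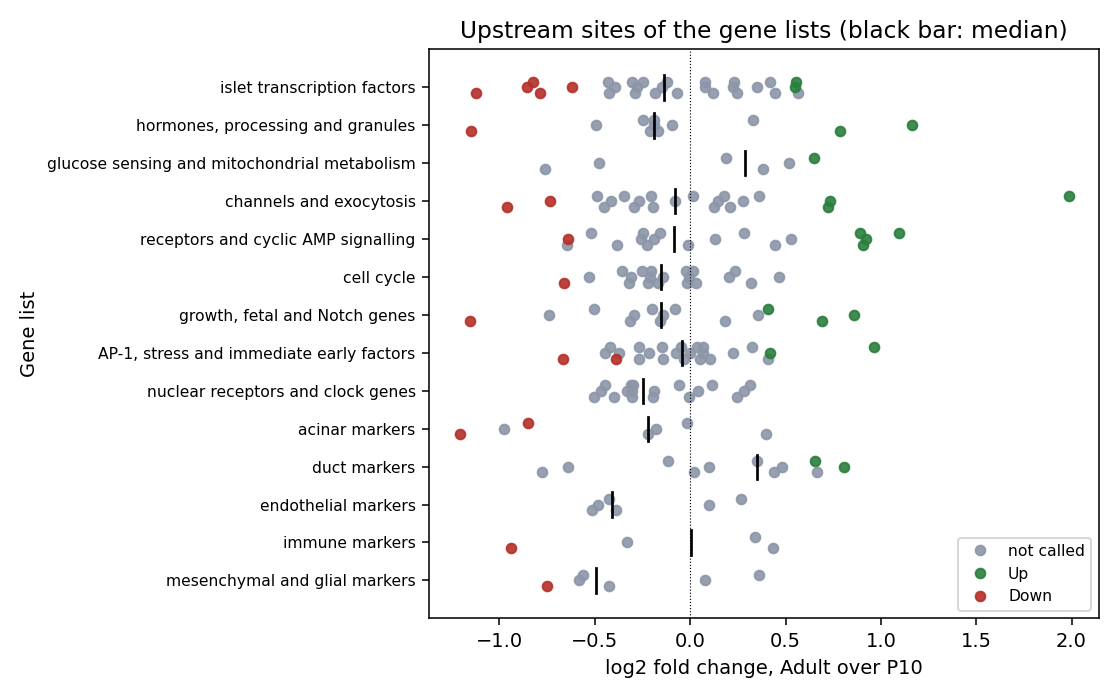
The log2 fold change (Adult over P10) of each upstream site of the 14 gene lists, 1 row of points per list, with Up sites in green, Down sites in red, sites not called in grey and a black bar at the median of the list. The *Syt4* site at 1.98 is the highest point, and the medians of 11 of the 14 lists lie below 0.

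Markers of other cell types were looked at in the same way. Acinar markers had 7 sites, 2 Down (*Nr5a2*, log2 fold change -1.21, FDR = 0.114, and *Pnlip*, -0.85, FDR = 0.178), both with low counts and overlapping groups. Duct markers had 11 sites, 2 Up, at *Car2*, a carbonic anhydrase (log2 fold change 0.80, FDR = 0.0147), and at *Elf3*, an epithelial factor (0.65, FDR = 0.0420). Endothelial markers had 6 sites, of which edgeR called 0, with 1 at an unadjusted p under 0.05 and 0 called by DESeq2 and by voom. Immune markers had 4 sites with 1 Down, at *Csf1r* (log2 fold change -0.94, FDR = 0.185), and mesenchymal and glial markers had 6 with 1 Down, at *Col1a1* (-0.75, FDR = 0.0964). Of these calls, *Car2* alone held in each fit that omits a library. *Elf3* was lost without P10 replicate 2 (0.55), *Col1a1* without Adult replicate 4 (-0.73) or P10 replicate 2 (-0.74), *Nr5a2* without Adult replicates 4 (-0.82) and 6 (-1.002) and P10 replicates 2 (-0.95) and 3 (-1.22), *Pnlip* without Adult replicates 4 (-0.72) and 5 (-0.73) and P10 replicates 2 (-0.78) and 3 (-0.74), and *Csf1r* in all but the fit without Adult replicate 6. *Pnlip* was also not called by voom, after cyclic loess or by DESeq2, nor *Csf1r* after cyclic loess or by DESeq2. DESeq2 called 1 acinar, 2 duct, 0 immune and 1 mesenchymal or glial site, and voom 1, 2, 1 and 1. The summed CPM at marker gene starts was 165 to 223 in Adult and 203 to 330 in P10 libraries for 6 of 9 β-cell markers with a start region, and 102 to 128 and 110 to 130 for 5 of 6 α-cell markers. It was 25.7 to 28.4 and 36.9 to 43.9 for 4 of 6 duct markers, 4.34 to 6.53 and 7.08 to 8.49 for 2 of 9 acinar markers, and 26.4 to 36.7 and 15.9 to 17.6 for 1 of 7 immune markers. It was 14.5 to 17.1 and 22.0 to 29.7 for 3 of 5 markers of δ- and PP-cells (a set that also holds *Ghrl* of ε-cells), with 2 of their 4 start regions Down. It was 9.04 to 16.2 and 12.0 to 16.6 for 1 of 7 endothelial markers, and 12.3 to 16.5 and 16.5 to 21.1 for 3 of 7 mesenchymal and glial markers. The remaining markers had no TSS-class region in the table. The groups did not overlap for the δ- and PP-cell, duct and acinar sums, lower in Adult libraries, and for the immune sum, higher in Adult libraries. The part of cell makeup in the results was not tested, and a change in the number of cells of a type and a change within those cells cannot be told apart in whole islets.

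Upstream sites of miRNA genes were grouped after the data had been seen. Their gene start is the start of the hairpin and not that of the primary transcript. There were 111 sites at 77 such genes, 9 Up (8.11%) and 6 Down (5.41%), with a median log2 fold change near 0 (-0.003). Both shares were below those over all upstream sites (9.02% and 6.97%) and over all regions (12.3% and 6.63%), so the sites named here are single cases and their number does not stand out. Mature sequences were matched by gene ID in RefSeq for the 14 genes with a called site, and the ones given are those of the called sites with the best known miRNAs. Capitals mark the seed, bases 2 to 8, which pairs with target mRNAs.
miR-29b-3p (*Mir29b1*, Up): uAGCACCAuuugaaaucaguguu
miR-7b (listed under the symbol *Mir9*, Up): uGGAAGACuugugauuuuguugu
miR-203a-3p (*Mir203*, Up): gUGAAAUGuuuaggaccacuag
miR-125b-5p (*Mir125b2*, Up): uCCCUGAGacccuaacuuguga
let-7i-5p (*Mirlet7i*, Up): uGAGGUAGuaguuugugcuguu
miR-9a-5p (*Mir9-2*, Down): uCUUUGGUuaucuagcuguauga
miR-218b (*Mir3565*, Down): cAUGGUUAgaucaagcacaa
miR-17-5p (listed under the symbol *Mir106a*, Down): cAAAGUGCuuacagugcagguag
No seed is shared among the mature sequences of the 14 genes.

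The miR-29 locus on chromosome 4 had 3 Up sites. Those 6481 and 9199 bp upstream of *Mir29b1* lie at chr4:58106614-58106881 and chr4:58109332-58109778 of Rn5, and the third lies 2066 bp upstream of *Mir3556a*, a hairpin on the other strand, at chr4:58097596-58097928. The site 9199 bp upstream held 26.6, 22.9 and 21.7 CPM in Adult and 18.9, 10.6 and 11.6 CPM in P10 libraries, without overlap (log2 fold change 0.79, standard error 0.22, FDR = 0.0196). The site 6481 bp upstream held 18.9, 9.54 and 11.0 CPM against 9.76, 4.07 and 5.44 CPM (log2 fold change 1.02, standard error 0.29, FDR = 0.0244). There P10 replicate 1 lay above the lowest Adult library, as it also did at the *Mir3556a* site (log2 fold change 0.96, standard error 0.30, FDR = 0.0438). At all 3 sites Adult replicate 4 and P10 replicate 1 were the highest of their groups. Without Adult replicate 4 the site at 6481 bp (0.66) and the *Mir3556a* site (0.59) were not called, nor was the latter without P10 replicate 2 (0.73).

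The *Mir203* site 3079 bp upstream held 14.4, 10.2 and 11.9 CPM in Adult and 9.25, 5.28 and 5.34 CPM in P10 libraries (log2 fold change 0.87, FDR = 0.0302), and it lies inside another listed gene. The site of the miR-7b hairpin held 13.3, 8.47 and 7.86 CPM against 7.48, 5.21 and 4.49 CPM (log2 fold change 0.79, FDR = 0.0665). miR-7 is abundant in endocrine cells. The *Mir125b2* site was among the more open upstream sites, with 48.1 ± 9.08 and 35.1 ± 1.93 CPM (log2 fold change 0.45, FDR = 0.0991). The *Mirlet7i* site had a log2 fold change of 0.63 (FDR = 0.190) with overlapping groups. Without Adult replicate 4, neither the miR-7b site (0.51) nor the *Mir125b2* site (0.32) nor the *Mirlet7i* site (0.46) was called. Without P10 replicate 2 the values were 0.70, 0.43 and 0.51, again not called. The miR-7b call was also lost without P10 replicate 3 (0.62), that of *Mir125b2* without Adult replicate 6 (0.44), and that of *Mirlet7i* without Adult replicate 5 (0.59) or P10 replicate 3 (0.55). The *Mirlet7i* site was also not called with column sums (0.53), RLE factors (0.61), cyclic loess (0.51) or DESeq2 (0.62).

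Down sites lay upstream of *Mir3565* (1.81, 1.17 and 2.06 CPM against 3.58, 4.28 and 5.02 CPM, log2 fold change -1.36, FDR = 0.0113) and of *Mir9-2* (log2 fold change -0.68, FDR = 0.0967). The site of *Mir106a*, whose gene ID carries miR-17 of a cluster linked to cell division, had a log2 fold change of -0.53 (FDR = 0.199) on the X chromosome. The other called sites lay upstream of *Mir770*, *Mir568*, *Mir326*, *Mir674* and *Mir6325*, with log2 fold changes from -0.91 to 0.68. Of the called miRNA sites other than those upstream of *Mir29b1* at 9199 bp, *Mir203* and *Mir3565*, each lost its call in at least 1 fit that omits a library. The *Mir9-2* call was lost without Adult replicate 4 (-0.57) or P10 replicate 2 (-0.58), and the *Mir106a* call held in the fit without P10 replicate 1 alone. The *Mir106a* call was also lost by voom (-0.51), that of *Mir568* after cyclic loess (0.45) and that of *Mir6325* with column sums (0.59), RLE factors (0.67), cyclic loess (0.63) or DESeq2 (0.67). Of the 112 sites of miRNA-type genes, 36 lay inside another listed gene, against 658 of all 4777 upstream sites (13.8%).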

How the data were processed

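Islet ATAC-seq libraries of 3 adult rats and of 3 litters at P10 were compared. Per the labels' processing notes and the study's methods, the authors aligned reads to Rn5 with BWA 0.7.13, called peaks with MACS2 2.1.1 on the pooled libraries of each age, joined them and deposited counts of Tn5 integrations per region and library. The deposited counts are raw, from 7916919 to 11903909 per library in Adult and from 13491534 to 21168463 in P10. All P10 libraries thus held more integrations than all Adult libraries, while the study's total reads per library overlapped between the ages. The columns of the authors' own test (fold changes and p-values) were not used, and no per-sample column was left out.

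Distinct regions were tested with edgeR 4.0.16 in R 4.3.3 (TMM, quasi-likelihood test, no filter, age as the only term), with Benjamini-Hochberg adjustment over all 101603 regions. Sites were called at p under 0.05 and FDR under 0.2. TMM factors lay between 0.93 and 1.04. CPM are counts per 1000000 integrations after TMM, computed here. Upstream sites were set against the summed TSS-class regions of their gene with limma 3.58.1, on differences of log2 CPM with a prior count of 2. Its variance trend over counts was added after a test on simulated data, in which 8.18% of 110 changed regions among 58229 were then recovered at a log2 change of 1. In simulated data for the test between ages, 42.5% of 200 regions changed by 1 were recovered among 101603. Exact permutation tests ran over the 20 splits of 6 libraries. Alternatives were other library sizes, cyclic loess, voom, DESeq2 1.42.0, filters and leaving out each library.

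The members, gene lists and named-site rules were chosen with earlier results of these data known. Named sites are the *Syt4* reporter site, the 8 Up and 8 Down sites with the smallest p and no overlap, the 3 called sites with the smallest p of each list, the 3 with the smallest p in each direction against the gene start, and the 3 genes with the most sites. Sites without a symbol were skipped (10 of 4777). 1 site that these rules pick is not reported here. Symbols of 303 sites were filled in from RefSeq by gene ID, which matched 4743 sites. No genome of build Rn5 was used here, so sequences of other sites are not given. Each age is represented by separate rats or litters. Standard errors of edgeR are the size of the log2 fold change over the square root of its F statistic. Those of limma come from its moderated variances. Both draw on the spread between libraries at other regions too, and are not that of a single site alone.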

Additional observations from a re-analysis of the deposited data

How the results depend on the processing

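Counts of called upstream sites rested on scaling and on single libraries. With total reads as library sizes, which moved the median of all regions from -0.01 to -0.84 on the log2 scale, 27 sites were Up and 3283 Down (19 and 2883 at an FDR under 0.05, 1 and 140 in the gene lists). Down sites numbered 559 with column sums (26 in the gene lists) and 513 after cyclic loess. At an FDR under 0.05 there were 218 Up and 103 Down sites, and at 1000 to 5000 bp 198 and 146 (91 and 50 at an FDR under 0.05). Leaving out each library gave 245 to 528 Up and 186 to 367 Down sites (113 to 280 and 44 to 94 at an FDR under 0.05), 9 to 31 Up and 12 to 20 Down in the lists, and 68 to 166 sites that gained more and 21 to 83 that gained less than their start. The lowest counts came without P10 replicate 2 (245 Up, 186 Down) or, for lists Up, without P10 replicate 3. Without P10 replicate 3, 262 were Up, and without Adult replicate 4, 270. Without Adult replicate 6, 214 were Down. Sites that gained more numbered 68 without P10 replicate 2 and 69 without P10 replicate 3, and those that gained less 37, 21 and 22 without P10 replicates 1, 2 and 3.

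The difference in the share of integrations stayed below 0 in all alternatives (-0.32 to -0.10 without single libraries), as did the median of upstream sites against all regions (-0.09 to -0.01). Total reads turned 12 named sites below 0: *Car2* (-0.025), *Elf3* (-0.20), *Tfam* (-0.21), *Sox4* (-0.15), *Scg2* (-0.073), *Mir29b1* at 9199 bp (-0.10), *Mir203* (-0.018), *Mir9* (-0.079), *Mir568* (-0.20), *Mir125b2* (-0.38), *Mirlet7i* (-0.22) and *Mir6325* (-0.15). No other alternative turned a named site. The cause of these shifts was not tested. Requiring the nearer edge at least 1000 bp away was chosen after seeing the data and gave 421 Up and 313 Down sites. No paired analysis was possible because the libraries carry the numbers 1 to 6, with none shared between ages. Depth limits sites with few counts, and 293 of the 4777 sites (6.13%) had a mean count under 20.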
